A study of Homo sapiens with 36 samples.

Results

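RPE1 5/3 12/3 is a human cell line with 3 copies of chromosome 5 and 3 copies of chromosome 12, and its small RNA was sequenced beside that of its parental line RPE1. All 297 miRNAs listed for these 2 lines are described, of 509 miRNA names in the tables of the series. No selection on their levels was added here. The lowest listed mean was 4.58, and the filter that the list had passed is not given. The series holds 36 libraries in 7 tables, and the table described here rests on 6 of them, 3 of RPE1 5/3 12/3 and 3 of RPE1. RPE1 is a line of retinal pigment epithelium that was immortalised with hTERT, the catalytic subunit of telomerase, and both groups carry hTERT. Neither group carries the H2B-GFP transgene that marks the RPE1* lines of the series, and no drug treatment is named for either group.

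Per the study's methods, RPE1 5/3 12/3 was made by moving a chromosome into RPE1 with microcells, and its extra chromosome 12 was gained spontaneously. Every library of the trisomic group therefore carries both gains, so that the effects of chromosome 5 and chromosome 12 cannot be told apart, and no other line with these 2 gains together is in the series. Nothing in the labels ties the 3 libraries of a group to separate clones.

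The values are the authors' mean of the normalised read counts over the 6 libraries. A mean of this kind mixes the trisomic and the parental libraries in equal number. It gives the level of a miRNA in the 2 lines together, and no difference between RPE1 5/3 12/3 and RPE1 is reported here. Values of single libraries were not analysed here, so the levels have no replicate error and no test, and the depth of each library is unknown. Levels are compared between miRNAs on the scale of reads per mature miRNA, which all have nearly the same length. Ligation and amplification differ between small RNA sequences, and their part in the order of the levels was not tested.

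A miRNA is cut from a hairpin in a longer transcript, first in the nucleus by Drosha and then in the cytoplasm by Dicer, and either arm of the hairpin can be loaded into an Argonaute protein. The arm nearer the 5′ end is named 5p and the other 3p. The seed, bases 2 to 8 of the mature miRNA, pairs with target mRNAs, and miRNAs with the same seed are grouped as a family. Hairpins that lie close together on the same strand can come from a shared transcript, a cluster, and many hairpins lie within an intron or exon of a longer host gene. Of the 297 names, 218 were 5p arms, 5 were 3p arms and 74 carried no arm in their name. The levels therefore describe mostly 5p arms, and for miR-143, miR-27a, miR-221 and other hairpins whose better known product is the 3p arm, the level of the 5p arm does not stand for the hairpin.

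The sequences that define the families of the gained chromosomes, in which a member from chromosome 5 or 12 shares its seed with members from elsewhere, are given 5′ to 3′ from the RefSeq table for GRCh38.p14, with the seed in capitals.
let-7i-5p (chromosome 12): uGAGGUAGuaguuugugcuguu
miR-4458 (chromosome 5): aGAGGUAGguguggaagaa
let-7a-5p (chromosomes 9, 11 and 22): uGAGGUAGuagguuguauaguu
miR-26a-5p (chromosomes 3 and 12): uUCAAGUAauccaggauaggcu
miR-26b-5p (chromosome 2): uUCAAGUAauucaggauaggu
miR-146a-5p (chromosome 5): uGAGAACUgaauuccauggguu
miR-146b-5p (chromosome 10): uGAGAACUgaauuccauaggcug
miR-1271-5p (chromosome 5): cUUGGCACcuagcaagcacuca
miR-96-5p (chromosome 7): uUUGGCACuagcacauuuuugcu
miR-449a (chromosome 5): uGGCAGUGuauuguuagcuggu
miR-34a-5p (chromosome 1): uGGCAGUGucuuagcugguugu
miR-449c-5p (chromosome 5): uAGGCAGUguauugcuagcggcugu
miR-2682-5p (chromosome 1): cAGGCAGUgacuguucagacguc
Positions are counted from 1 at the 5′ end, and each change is written from the first-named miRNA to the second. From let-7a-5p to let-7i-5p the changes are G12U, A17G, U18C and A19U, all outside the seed. From miR-146b-5p to miR-146a-5p they are A18G and C21U within the 22 bases compared. From miR-26a-5p to miR-26b-5p they are C11U and C21U within 21 bases. miR-1271-5p and miR-96-5p differ at 13 of 22 positions although they share bases 2 to 8. The closest of these sequences may share reads, and how the authors' counting split such reads was not tested.

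The 2 miRNAs that held most of the level, the highest of chromosome 5 and the members of its CARMN cluster have these sequences from the same table, with the seed in capitals.
miR-21-5p (chromosome 17): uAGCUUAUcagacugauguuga
miR-100-5p (chromosome 11): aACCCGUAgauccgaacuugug
miR-340-5p (chromosome 5): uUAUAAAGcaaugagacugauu
miR-145-5p (chromosome 5): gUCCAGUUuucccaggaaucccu
miR-143-5p (chromosome 5): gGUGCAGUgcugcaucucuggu

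The means ran from 4.58 to 3578031 normalised reads, with a median of 85.4. Of the 297 miRNAs, 237 had a mean of at least 10, 145 of at least 100 and 74 of at least 1000, and 60 were under 10. The level was concentrated in few miRNAs. miR-21-5p, a miRNA that is abundant in many cultured and tumour cells, stood highest at 3578031, followed by miR-100-5p at 3422312, and these 2 held 76.8% of the summed mean of 9113067. This sum and every share of it cover the 297 rows used here, with only 5 named 3p arms, and other mature miRNAs of the cells, most 3p arms among them, were not analysed here. let-7i-5p, from chromosome 12, was the 3rd highest at 684349. The 4th, miR-30a-5p, stood at 312796, and let-7a-5p at 169007. miR-26a-5p, with a hairpin on chromosome 12 and another on chromosome 3, was the 6th at 139276. miR-125b-5p, let-7f-5p, let-7g-5p and miR-181a-5p completed the 10 highest at 101932, 100178, 55240 and 53812.

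**Figure D1:**
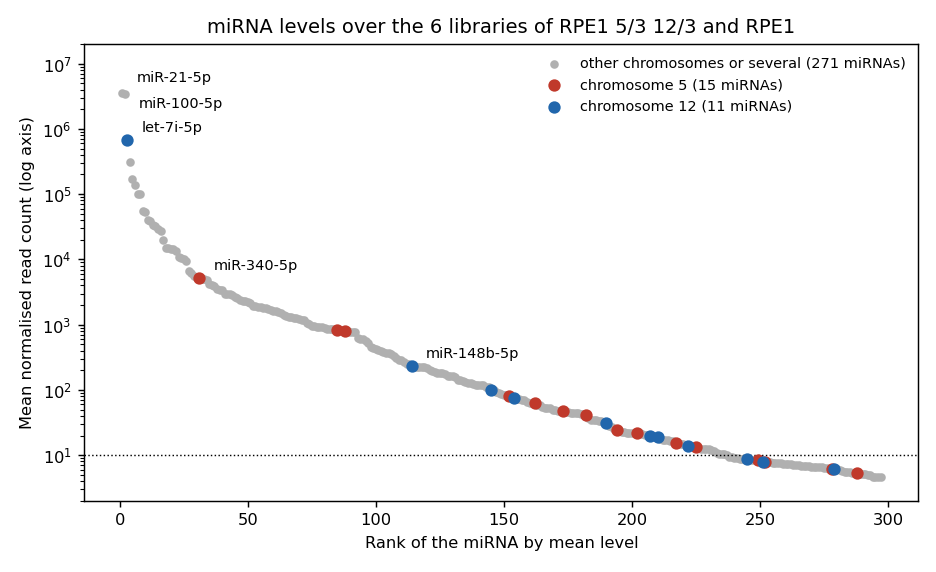
Each point is a miRNA, placed by its rank (x axis) and by the authors' mean normalised read count over the 6 libraries of RPE1 5/3 12/3 and RPE1 (log y axis). The 15 miRNAs of chromosome 5 (red) start at miR-340-5p with 5271, the 11 of chromosome 12 (blue) include let-7i-5p at 684349, and the dotted line marks a mean of 10.

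The labelled cell type was compared with a list of 21 marker miRNAs of 9 cell types, of which 7 were listed. miR-204-5p, which is enriched in retinal pigment epithelium and is encoded within TRPM3, had a mean of 3458. miR-211-5p, its relative with the same seed, stood at 5.07. Of the markers of other cells, the smooth muscle miRNAs miR-145-5p and miR-143-5p had means of 801 and 62.9, the neuronal miR-9-5p 130, the endothelial miR-126-5p 21.8 and the pluripotency miRNA miR-302a-5p 8.91. The 14 others, among them the 3 blood cell markers, liver miR-122-5p and miR-200c-5p of simple epithelia, were not listed. Only 5 of the 297 names are 3p arms, and some markers are named by a 3p arm. For other markers the 5p arm may not stand for its hairpin. A marker that was not listed is therefore not shown to be absent from the cells.

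For chromosome 5, 15 miRNAs had all of their hairpins there and 2 more had a hairpin on other chromosomes as well. The 15 had a median of 24.4, and 11 of them had a mean of at least 10 and 3 of at least 100. Together they held 0.0795% of the summed mean. Positions are on GRCh37, which is the hg19 build that the reads were mapped to, and host genes are from GENCODE 44.

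miR-340-5p was the highest chromosome 5 miRNA at 5271, rank 31 of 297. Its hairpin lies at chr5:179442303-179442397 on the minus strand, in an intron of RNF130, which encodes a RING finger protein. miR-584-5p followed at 835, from chr5:148441876-148441972 in an intron of SH3TC2, a gene of Schwann cell myelination. Apart from miR-145-5p, the other miRNAs that lie only on chromosome 5 had means under 100.

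miR-145-5p and miR-143-5p are the known cluster of smooth muscle and mesenchymal cells, and their hairpins lie at chr5:148810209-148810296 and chr5:148808481-148808586 within CARMN, a long non-coding RNA. miR-145-5p, from an intron, stood at 801, and miR-143-5p, from an exon, at 62.9. The higher of the 2 levels was 12.7 times the lower, although both hairpins share a host and a strand.

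miR-449c-5p and miR-449a, a cluster of multiciliated cells, lie at chr5:54468090-54468181 and chr5:54466360-54466450 in an intron of CDC20B. Their means were 47.5 and 13.1. Each shares its seed with a miRNA from chromosome 1 that stood higher. miR-34a-5p, a target of p53 with the seed of miR-449a, had a mean of 1340, and miR-2682-5p, with the seed of miR-449c-5p, 774. miR-34c-5p of chromosome 11, also of the miR-34 family, stood at 85.4 and was not grouped by seed, for want of a matched sequence.

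miR-146a-5p, a miRNA induced by NF-kappaB in the innate immune response, had a mean of 41.7 from chr5:159912359-159912457 in an exon of MIR3142HG. Its relative miR-146b-5p from chromosome 10 stood at 2926 and held 98.6% of the level of this seed. miR-1271-5p, at chr5:175794949-175795034 in an intron of ARL10, had a mean of 80.1, and miR-96-5p with the same seed, a member of a cluster of sensory cells, 912. In all 4 of these pairs of names grouped by seed, the chromosome 5 miRNA was the lower of the 2.

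miR-378a-5p lies in PPARGC1B, which encodes a coactivator of mitochondrial metabolism, at chr5:149112388-149112453, and had a mean of 24.4. miR-2277-5p, which overlaps an exon of FAM172A at chr5:92956402-92956494, stood at 21.9, and miR-3661, at chr5:133561448-133561543 with no host on its strand, at 15.2. The remaining 4 were under 10. These were miR-4636 in an intron of SEMA5A, a semaphorin of axon guidance, at 8.35, miR-582-5p in an intron of PDE4D, a cyclic AMP phosphodiesterase, at 7.92, miR-581 in an intron of ARL15 at 6.20 and miR-4458, a miRNA with the let-7 seed, at 5.25.

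Both miRNAs with a further locus elsewhere were above the median of the table. miR-218-5p had a mean of 1878 and has a hairpin at chr5:168195151-168195260 in an intron of SLIT3, a ligand of the Robo receptors of axon guidance, and another on chromosome 4. miR-9-5p, a miRNA of neural progenitors, had a mean of 130 and a hairpin at chr5:87962671-87962757 in an exon of LINC00461, with others on chromosomes 1 and 15. The reads of such a miRNA cannot be assigned to a locus, so they are not counted in the share of chromosome 5.

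For chromosome 12, 11 miRNAs had all of their hairpins there and 2 more had a hairpin elsewhere. Their median, 19.7, was close to that of chromosome 5, and 8 had a mean of at least 10 and 3 of at least 100. Their share of the summed mean was 7.52%, and nearly all of it was let-7i-5p. The 244 miRNAs of the other chromosomes had a median of 120 and held 85.5%, and 196 of them had a mean of at least 10. No test was run on this difference in medians, since hairpins of a cluster share a transcript and are not independent.

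let-7i-5p is a member of the let-7 family, which represses growth-promoting genes and marks differentiated cells. Its hairpin lies at chr12:62997466-62997549 on the plus strand, in an intron of the lncRNA MIRLET7IHG. No other let-7 miRNA reached its level of 684349, and it made up 66.0% of the summed level of the 9 names grouped by the let-7 seed, which leave out let-7c for want of a matched sequence. miR-26a-5p, which has a hairpin at chr12:58218392-58218475 in an intron of CTDSP2, a phosphatase gene of the small CTD family, had a mean of 139276, against 5000 for miR-26b-5p from chromosome 2.

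The next on chromosome 12 lay far lower. miR-148b-5p, at chr12:54731000-54731098 in an intron of COPZ1, a subunit of the COPI coat, had a mean of 236. miR-331-5p, at chr12:95702196-95702289 with no host on its strand, stood at 101. miR-1252, in an intron of SYT1, the calcium sensor of synaptic vesicles, had a mean of 74.6 at chr12:79813037-79813101.

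miR-3913-5p had a mean of 30.7 and comes from hairpins on opposite strands of the same place, chr12:69978502-69978603 and chr12:69978503-69978602, so its reads cannot be assigned to a strand. miR-1228-5p, in an intron of the lipoprotein receptor gene LRP1, stood at 19.7, miR-618 in LIN7A at 18.7 and miR-1291 in KANSL2 at 13.8. miR-196a-5p, with hairpins beside HOX genes on chromosomes 12 and 17, had a mean of 10.6. Under 10 were miR-4497 at 8.69, miR-1293 in an intron of LIMA1 at 7.93 and miR-616-5p in an intron of DDIT3, a transcription factor of the stress response, at 6.11.

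The seed families were just as uneven. The 249 names with a mature sequence in the RefSeq table held 24 seeds shared by at least 2 names, with 66 names among them. Names without a sequence there are in no family, so the shares below leave them out. Among these are let-7c at 4164, miR-30d-5p at 32261, miR-30b-5p at 1904, miR-34c-5p at 85.4 and miR-181d at 282. The relatives miR-10a-5p at 27145 and miR-10b-5p at 1643 also form no family here. Nor do miR-28-5p at 2674 and miR-708-5p at 1299. The number and order of the families therefore cover only names with a matched sequence. The 3 highest held 88.7% of the summed mean. The family of miR-21-5p and miR-590-5p held 39.3%, and miR-590-5p, its other member, had a mean of only 5.19. The family of miR-100-5p held 38.1%, with miR-99b-5p at 40334 and miR-99a-5p at 9567. The let-7 family held 11.4%.

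Within the let-7 family, let-7i-5p, let-7a-5p, let-7f-5p and let-7g-5p were among the 10 highest miRNAs of the table. let-7b-5p, let-7d-5p and let-7e-5p followed at 14389, 6676 and 4801, miR-98-5p at 2880, and miR-4458, the chromosome 5 member, was the lowest of the 9 grouped names. let-7c, at 4164, would stand between let-7e-5p and miR-98-5p. The 3 grouped names of the miR-30 seed, miR-30a-5p, miR-30e-5p and miR-30c-5p, held 3.97%, the miR-26 seed 1.58%, the miR-125 seed 1.28% and the 3 grouped names of the miR-181 seed 0.739%.

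The seed of miR-17, a family that promotes proliferation, had 6 listed members and 0.289% of the summed mean. miR-20a-5p led it at 14890, before miR-93-5p at 5511, miR-17-5p at 4059 and miR-106b-5p at 1764, and miR-106a-5p and miR-20b-5p were at 89.7 and 44.2. The seed of miR-15 and miR-16, which represses cyclins, had 5 members and 0.0748%, and miR-16-5p held 79.8% of it. In 10 of the 24 families the highest member held over 90% of the family's level.

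Loci within 10 kb of the next on the same strand were taken as a cluster. Of 35 clusters with at least 2 listed names, 24 had at least 2 names that come from no other locus, and only these were compared. The ratio of the highest to the lowest mean within a cluster had a median of 6.60 and ran from 1.81 to 2020, and 9 clusters exceeded 10.

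**Figure D2:**
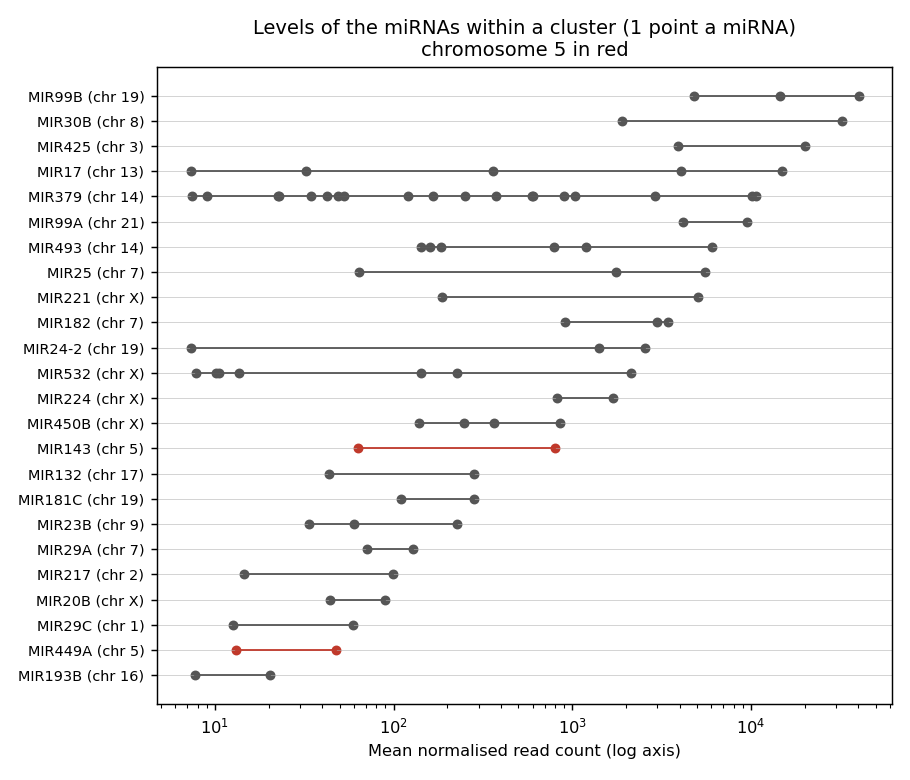
Each row is a cluster, named by a hairpin in it and with its chromosome, and each point is the authors' mean normalised read count of a miRNA in it over the 6 libraries (log x axis), with a line from the lowest to the highest. The chromosome 5 clusters of miR-143 and miR-449 (red) span 12.7 and 3.62 times, and the cluster of miR-17 spans 2020 times. Most points are 5p arms, so a span does not compare whole hairpins.

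The widest span was that of the miR-17 cluster on chromosome 13, in exons of MIR17HG, where miR-20a-5p stood at 14890, miR-17-5p at 4059, miR-18a-5p at 360, miR-92a-1-5p at 32.4 and miR-19b-1-5p at 7.37. The 5p arms of miR-92a-1 and miR-19b-1 are not the arms these hairpins are known for. The related cluster of miR-25, miR-93 and miR-106b lies in MCM7, a subunit of the replicative helicase, and miR-25-5p had a mean of 64.1 there, against 5511 for miR-93-5p. Only the 5p arms of this cluster were listed, so these values do not compare whole hairpins.

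Chromosome 14 held 32 of the listed miRNAs, more than any other chromosome, and the leading ones lie in an imprinted region. The cluster that starts with miR-379 had 19 names and a span of 1434 times. miR-379-5p and miR-411-5p led it at 10709 and 10175, miR-134 had a mean of 2907 and miR-369-5p 1040, and miR-541-5p was the lowest at 7.47. Of miR-299, both arms were listed, with 600 for 3p and 165 for 5p. The cluster of miR-493 in MIR493HG had 6 names, from miR-493-5p at 6089 and miR-127-5p at 1192 down to miR-432-5p at 143.

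Several other clusters had a protein-coding host. miR-99b-5p, miR-125a-5p and let-7e-5p, in SPACA6 on chromosome 19, had means of 40334, 14555 and 4801. miR-191-5p and miR-425-5p, in DALRD3 on chromosome 3, stood at 20032 and 3907. In CLCN5, a chloride channel gene of chromosome X, 7 names ran from miR-532-5p at 2130 to miR-501-5p at 7.85. miR-224-5p and miR-452-5p, in GABRE on the same chromosome, were within 2.06 times of each other, at 1696 and 824.

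Clusters without such a host gave narrow and wide spans alike. miR-183-5p, miR-182-5p and miR-96-5p, the cluster of sensory cells on chromosome 7, stood at 3421, 2971 and 912. miR-221-5p had a mean of 5051 and miR-222-5p 187. In the cluster of miR-27a, miR-24-2 and miR-23a on chromosome 19, the 5p arms had means of 2559, 1421 and 7.304. The narrowest span was that of miR-29b-1-5p and miR-29a-5p, at 128 and 70.8.

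Of the 259 names with 1 locus, 112 lay in an intron of a protein-coding gene, 23 in an exon of one and 66 in a lncRNA, and 58 had no host on their strand. The median level was 67.5 for protein-coding introns, 66.1 for protein-coding exons, 251 for lncRNAs and 63.2 for those without a host. The lncRNA group includes MIR100HG, MIR17HG and the chromosome 14 transcripts, so its members share hosts.

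The other RPE1 lines of the series offer a reference for these levels, since the tables of RPE1* 21/3 and RPE1* 7/3 each give the authors' mean over a trisomic line and its control. All libraries of these RPE1* tables carry H2B-GFP, and none of those described here do. In the ratios to them, the transgene and the chromosome gains cannot be told apart. RPE1* 21/3 is trisomic for chromosome 21, and RPE1* 7/3 for chromosome 7, with chromosomes 9 and 12 gained spontaneously per the methods. HCT116 5/4, a line of colorectal carcinoma HCT116 with 4 copies of chromosome 5, was set beside them. The tables were normalised separately, each mean covers a line and its control, and no replicate error can be given, so the ratios are a description without a test. A log2 ratio of means was taken for miRNAs with a mean of at least 10 in both tables and was centred on its median, which shifted it by 0.10, -0.19 and -0.35 for RPE1* 21/3, RPE1* 7/3 and HCT116 5/4.

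Relative to RPE1* 21/3, the 7 chromosome 5 miRNAs had a median log2 ratio of 0.00 and the 7 of chromosome 12 of 0.07, and the 188 of other chromosomes of -0.05. The central 90% of the 223 single ratios ran from -0.79 to 0.86. This range does not measure the spread of a group median. Each mean also mixes trisomic and parental libraries in equal number, which dilutes any change in the trisomic line. An effect of the gained chromosomes was therefore not tested by these medians. The signs for chromosomes 5 and 12 turned, to -0.07 and -0.01, when the tables were scaled by their summed means. Relative to RPE1* 7/3, the medians were 0.30 for 8 miRNAs of chromosome 5 and 0.40 for 6 of chromosome 12. In each group 4 were above 0, and the central 90% of the single ratios ran from -1.64 to 1.92. RPE1* 7/3 gained chromosome 12 as well, so its chromosome 12 ratios do not compare lines with and without that gain. The chromosome 5 median was -0.30 for miRNAs with a mean of at least 100 in both tables. That limit left only miR-340-5p, at 5271 here against 3628, and miR-584-5p, at 835 against 2510. These went opposite ways, so this value is the midpoint between them. Relative to HCT116 5/4, the 8 chromosome 5 miRNAs that passed the limit in both tables were below 0, with a median of -1.48. The limit left out miR-143-5p, miR-146a-5p and miR-3661, which were higher here, at 62.9, 41.7 and 15.2 against 9.37, 3.48 and 5.33, and miR-581, which was lower, at 6.20 against 17.6. With no limit the chromosome 5 median was -0.64, at a mean of at least 100 it was -0.69, and scaled by the summed means it was -2.55. The 6 miRNAs of chromosome 12 had a median of -0.08, which was 0.00 at a mean of at least 100 and -1.15 when scaled by the summed means. HCT116 5/4 differs from the RPE1 lines in tissue of origin as well as in copies of chromosome 5, and these cannot be told apart.

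**Figure D3:**
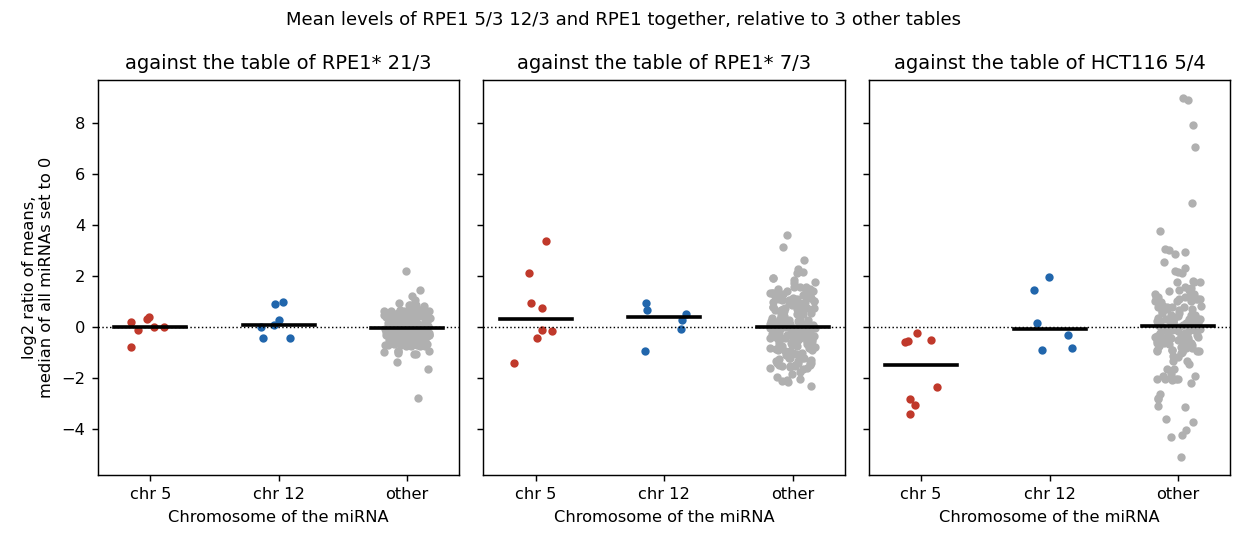
Each point is a miRNA, and the y axis gives the log2 ratio of the authors' mean over RPE1 5/3 12/3 and RPE1 to their mean in another table, with the median of all miRNAs at 0 and black bars at the median of each chromosome group. Against RPE1* 21/3 the bars lie between -0.05 and 0.07, and against HCT116 5/4 the 8 chromosome 5 miRNAs with a mean of at least 10 in both tables lie below 0, whereas miR-143-5p, miR-146a-5p and miR-3661, higher here, are under that limit in HCT116 5/4 and are not drawn.

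Single chromosome 5 miRNAs varied far more than these medians. miR-145-5p had a mean of 801 here and 808 in the table of RPE1* 21/3, but 89.5 in that of RPE1* 7/3, and miR-143-5p had 62.9, 101 and 9.30. Both members of the CARMN cluster were thus lowest in the RPE1* 7/3 table. miR-146a-5p, at 41.7 here, was not listed for RPE1* 21/3 and had 11.04 for RPE1* 7/3. miR-1271-5p, at 80.1 here, had 6.89 for RPE1* 21/3, was not listed for RPE1* 7/3 and had 154 for HCT116 5/4. miR-584-5p stood at 835 here, at 624 and 2510 in the RPE1* 21/3 and RPE1* 7/3 tables and at 5516 in that of HCT116 5/4. miR-340-5p, with 5271, 4903, 3628 and 7902 in the same order, had the narrower range.

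**Figure D4:**
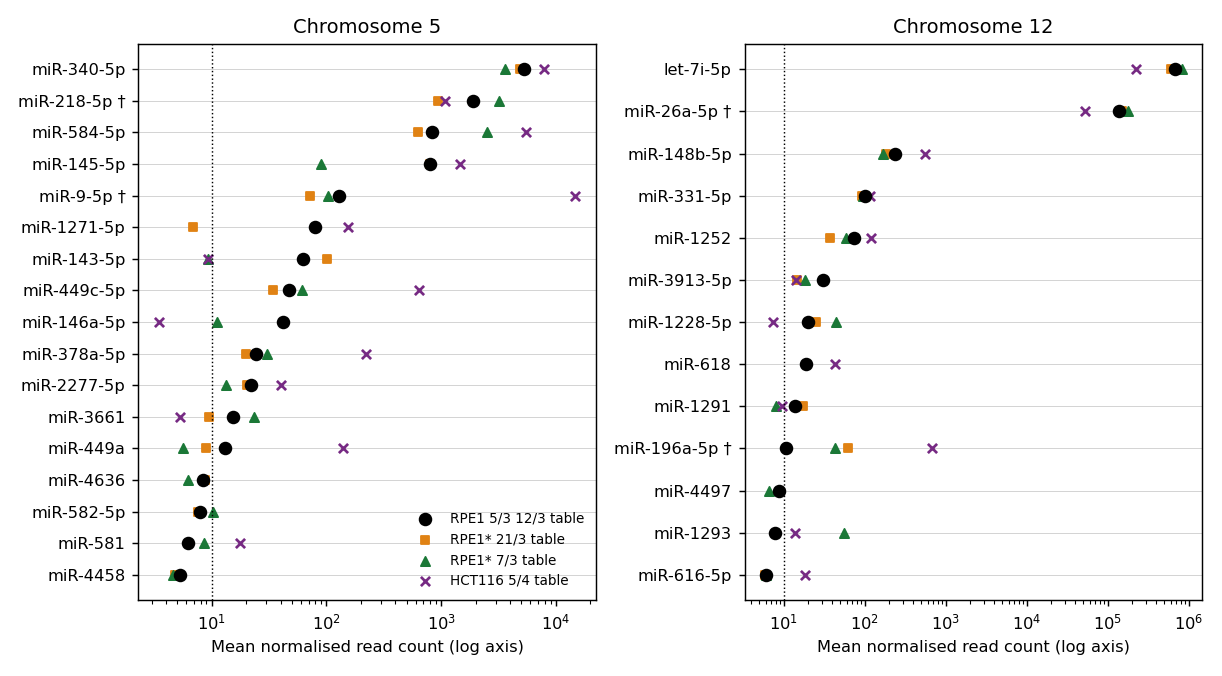
Each row is a miRNA with a hairpin on chromosome 5 (left) or 12 (right), marked † where another hairpin lies elsewhere, and the x axis gives the authors' mean normalised read count (log scale) in 4 tables, which were normalised separately, with the dotted line at 10. A missing symbol is a miRNA not listed in that table or hidden under the black point, and miR-145-5p, miR-1271-5p and miR-196a-5p spread widely whereas let-7i-5p and miR-340-5p do not.

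On chromosome 12, let-7i-5p had means of 607742 for RPE1* 21/3, 818446 for RPE1* 7/3 and 223379 for HCT116 5/4, so the 684349 measured here lies between the values of the other RPE1 tables. Of the RPE1* tables, only that of RPE1* 21/3 comes from a line without a gain of chromosome 12. miR-3913-5p, at 30.7, was higher than in the 3 other tables, where it ran from 14.2 to 18.2. miR-1252, at 74.6, was above its 37.5 and 59.5 of the RPE1* tables and below the 119 of HCT116 5/4. miR-196a-5p, at 10.6, was lower than the 63.0, 42.6 and 684 of RPE1* 21/3, RPE1* 7/3 and HCT116 5/4. miR-618, at 18.7, was not listed for either RPE1* line.

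Away from chromosomes 5 and 12, the largest ratio above RPE1* 21/3 was that of miR-10b-5p, a miRNA of the HOXD gene cluster, at 1643 against 336, a centred log2 ratio of 2.19. Its relative miR-10a-5p of the HOXB cluster went the other way, at 27145 against 49185. miR-7-5p also stood higher than in the RPE1* 21/3 table, at 28896 against 10556. It was lower than its 73817 for RPE1* 7/3 and its 180135 for HCT116 5/4. Against RPE1* 7/3, miR-204-5p was lower at 3458 against 16266, and miR-452-5p was higher at 824 against 107. The largest ratios either way in that comparison were those of miR-1246, at 960 against 89.7, and miR-320b, at 1262 against 7242. The hairpin of miR-204-5p lies on chromosome 9, which RPE1* 7/3 gained, and the part of that gain was not tested. Against HCT116 5/4, miR-379-5p stood at 10709 against 26.9 and miR-411-5p at 10175 against 26.9, centred log2 ratios of 8.99 and 8.92. miR-204-5p also stood higher than in HCT116 5/4, with 18.4 there. miR-9-5p, which has a hairpin on chromosome 5 as well as on 1 and 15, was lower here, at 130 against 14798.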

How the data were processed

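Small RNA of RPE1 5/3 12/3 and RPE1 cultures was prepared and sequenced by the authors as single reads. The authors removed adapters with cutadapt, mapped to hg19, counted mature miRBase miRNAs with mirdeep2 and normalised with DESeq2. For their comparison of line and control, they entered the replicate pairing to allow for sequencing batches. The levels reported here are not adjusted by that pairing. The deposited table holds no values of single libraries. The deposited signal used here is the mean over 6 libraries of read counts that the authors had scaled by size factors. The 5 other columns of each deposited table hold the authors' comparison of line and control, namely the log2 fold change, its standard error, the test statistic, the p-value and the adjusted p-value. These were not used, and neither was any other file column. The filter on listed miRNAs is not given in the sources used here, and depth per library is unknown.

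Hairpins from RefSeq (GRCh38.p14) were matched exactly to GRCh37 or placed by GENCODE 44, and hosts are protein-coding genes or lncRNAs on the same strand. Named miRNAs were the 10 highest, all with a locus on chromosomes 5 or 12 and the members of each family or cluster described. Those named for their ratio to another table or as markers were added, the former after their values were seen. Members and lists were chosen with earlier results of these data known. A planned count model could not be fitted. The ratio step was tested on simulated data. Python 3.11.15, numpy 2.4.6, pandas 2.3.3 and matplotlib 3.10.9 were used.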

Additional observations from a re-analysis of the deposited data

How the results depend on the processing

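With means of at least 10, the let-7 seed held 11.4% of the summed mean, the miR-100 seed 38.1%, chromosome 12 7.52% and chromosome 5 0.0792%, the latter 2 from 8 and 11 miRNAs. Without miR-21-5p, the most abundant miRNA, these became 18.7%, 62.7%, 12.4% and 0.130%, since the sum is smaller. With means of at least 100, 3 miRNAs remained on chromosome 5 and 3 on chromosome 12, and the chromosome 5 share was 0.0758%, and with no limit it was 0.0795%. For the log2 ratios, alternatives chosen after seeing the data gave chromosome 5 medians of -0.07 to 0.04 relative to RPE1* 21/3, -0.30 to 0.40 relative to RPE1* 7/3 and -2.55 to -0.64 relative to HCT116 5/4. For chromosome 12 they gave -0.01 to 0.17, 0.27 to 0.50 and -1.15 to 0.00. A mean of at least 100 in both tables left fewer miRNAs for some ratios. On chromosome 12, only let-7i-5p and miR-148b-5p remained for RPE1* 21/3 and RPE1* 7/3, where miR-331-5p stood at 93.4 and 96.2. On chromosome 5, only miR-340-5p and miR-584-5p remained for RPE1* 7/3. No paired analysis was possible because the columns used carry no replicate. Leaving out a replicate, other normalisations and the planned count models were not run, since the mean used here is pooled over both groups. Low means cannot be given a counting error, as depth is unknown.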
